A study of Mus musculus with 6 samples.

Results

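The miR-26 and miR-30 families were followed in small RNA of extracellular vesicles (EVs) shed by astrocytes and by neural stem cells (NSCs). The 7 members were picked by name, 2 of miR-26 (mmu-miR-26a-5p and mmu-miR-26b-5p) and 5 of miR-30 (mmu-miR-30a-5p, mmu-miR-30b-5p, mmu-miR-30c-5p, mmu-miR-30d-5p and mmu-miR-30e-5p), out of 902 mature miRNA rows in the count table. All 7 had counts in all 6 libraries and passed the low-count filter, as did 256 mature miRNAs in all. Astrocyte EVs (3 libraries) came from primary cortical astrocytes of CD1 mice, which the study's methods describe as cultures of postnatal day 4 pups in medium with 2% fetal bovine serum, shaken to remove microglia and oligodendrocytes. Per the same methods, the shaken cells were split in exosome-free medium and then plated in complete medium with 2% serum, from which EVs were collected. NSC EVs (3 libraries) came from primary NSCs of the CD1 subventricular zone, labelled neonatal. No library carries a transgene or treatment label, and no age is labelled for the NSCs. EVs were the pellet of a 100000 × g spin for astrocytes per the study's methods, samples of both genders were pooled, and the series record gives serial centrifugation for both EV types. The labels do not say whether the libraries came from separate cultures, and each p-value is set against the scatter of these libraries alone, which may be technical. In bulk EV RNA, fewer vesicles of a cell type and less of a miRNA per vesicle cannot be told apart.

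A miRNA is cut as a short duplex from a hairpin, and 1 strand (the 5p or 3p arm) is loaded onto an Argonaute protein, where bases 2 to 8, the seed, select target mRNAs. The members of a family share the seed and so much of their target range. The miR-26 genes lie within genes for small C-terminal domain phosphatases, enzymes known to hold back neuronal genes in cells that are not neurons, while miR-30 is found in many tissues and is known for targets in epithelial identity, apoptosis and autophagy. Both families are usually counted among the broadly expressed miRNAs.

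The mature sequences are shown because the families are defined by the seed and because near-identical members set how far counts can be told apart. RefSeq (GRCm38.p6) matched 5 of the 7 members. The seed is in capitals.
miR-26a-5p: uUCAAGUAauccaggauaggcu
miR-26b-5p: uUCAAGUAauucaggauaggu
miR-30a-5p: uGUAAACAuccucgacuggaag
miR-30c-5p: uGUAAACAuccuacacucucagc
miR-30e-5p: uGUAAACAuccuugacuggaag
Counted from the 5′ end, miR-26a-5p and miR-26b-5p differed by C11U and C21U over the 21 bases both have. MiR-30a-5p and miR-30e-5p differed only by C13U, so reads of this pair are the most easily exchanged of those compared. MiR-30c-5p differed from miR-30a-5p at 5 of 22 bases, the first being C13A. The same seed as miR-30 is carried by miR-384-5p, which had 0, 0 and 13 counts in astrocyte EVs and 13, 19 and 14 counts in NSC EVs and adds little to the family.

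The genes of the members are spread over the mouse genome (mm10 coordinates of the count table, annotation from GENCODE vM21). Mir-26a-1 (chr9:119031796-119031885, +) lay in an intron of Ctdspl and mir-26b (chr1:74394310-74394394, +) in an intron of Ctdsp1. Mir-26a-2 (chr10:126995530-126995613, +) lay within Ctdsp2, in sequence that is an exon of some annotated transcripts. Mir-30c-1 (chr4:120769534-120769622, -) and mir-30e (chr4:120772606-120772697, -) lay 2983 bp apart in introns of Nfyc, which encodes a subunit of the NF-Y transcription factor, and an annotated gene Mir30f overlaps mir-30e on the other strand. Mir-30a (chr1:23272269-23272339, +) and mir-30c-2 (chr1:23291701-23291784, +) lay 19361 bp apart, the second of them in a lincRNA exon. Mir-30b (chr15:68337415-68337510, -) and mir-30d (chr15:68341208-68341289, -) lay 3697 bp apart in exons of noncoding genes that carry only a model number. MiR-26a-5p and miR-30c-5p are each made from 2 of these loci, and their counts cannot be assigned to a locus. The 39470 counts of miR-26a-5p over the 6 libraries stood beside 39476 counts for hairpin mir-26a-1 and 39501 for mir-26a-2, so the same reads were counted at both.

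Mature miRNAs made up 0.212 to 0.357% of all counts in astrocyte EV libraries, against 0.348 to 0.538% in NSC EV libraries. This left 182075 to 399211 mature miRNA counts per astrocyte EV library and 177093 to 259560 per NSC EV library. The percentages are of counts over all annotated rows, not of reads, since hairpin and host gene rows hold miRNA reads again. Astrocyte EV replicate 3 stood apart from the other astrocyte EV libraries in marker miRNAs. Among 6 red blood cell miRNAs, miR-486a-5p and miR-486b-5p held nearly the same counts and were taken once. The 5 distinct rows (4 tested, all 4 called higher in astrocyte EVs) summed to 19435 to 101945 CPM (counts scaled to library size) in astrocyte EVs, most in replicate 3, against 957 to 1653 CPM in NSC EVs, where miR-451a was at 0. Nearly all of this sum was miR-486a-5p (18908, 39767 and 101105 CPM in astrocyte EVs). MiR-451a (366, 806 and 478 CPM) and miR-144-5p (80.8, 212 and 151 CPM) were highest in astrocyte EV replicate 2. MiR-144-3p was at 80.8, 191 and 198 CPM. Of 7 mesenchymal miRNAs, miR-199a-3p and miR-199b-3p had identical values and were also taken once, and the 6 distinct rows (2 tested, both higher) summed to 92249 and 98509 CPM in astrocyte EV replicates 1 and 2, to 6650 CPM in replicate 3, against 860 to 1864 CPM in NSC EVs, where miR-214-3p was at 0. The 6 neuronal miRNAs (6 tested, 5 lower) summed to 1596 and 2383 CPM in astrocyte EV replicates 1 and 2, to 48467 CPM in replicate 3, against 120490 to 162539 CPM in NSC EVs, with miR-124-3p and miR-7b-5p at 0 in all astrocyte EV libraries. Most of each sum was miR-9-5p, which was not called (1245, 1955 and 48244 CPM in astrocyte EVs, 97177 to 132450 CPM in NSC EVs). No other miRNA of this list was raised in astrocyte EV replicate 3. MiR-128-3p was at 152, 171 and 126 CPM in astrocyte EVs, miR-7a-5p at 90.3, 80.6 and 85.0 CPM and miR-137-3p at 109, 176 and 12.6 CPM. The 6 microglia and white blood cell miRNAs (4 tested, 2 higher and 1 lower) summed to 2641 to 5250 CPM in astrocyte EVs, against 811 to 1771 CPM in NSC EVs. In this list miR-150-5p was at 0 in all astrocyte EV libraries, against 46.9 to 85.4 CPM in NSC EVs, and miR-223-3p was at 0, 5.04 and 15.7 CPM in astrocyte EVs, against 0 in NSC EVs. The part of these other sources in the values below was not tested. Summed by list, fragments of marker mRNAs did not separate the labels. All 9 astrocyte markers were detected in every library. They summed to 16.8 to 36.8 CPM in astrocyte EVs and 35.7 to 60.2 CPM in NSC EVs. CPM of marker mRNAs are scaled to all non-hairpin counts, while the miRNA CPM above are scaled to mature miRNA counts. Of the astrocyte markers, Slc1a2 had the most raw counts in each library, while Gfap had 89, 107 and 451, against 33, 51 and 31. Raw counts are not scaled to depth, which was 72068913 to 111276337 non-hairpin counts in astrocyte EV libraries, against 44218109 to 50585031 in NSC EV libraries. The raw counts of single markers therefore cannot be set directly against each other between the EV types. The 8 NSC markers, all detected, gave 10.3 to 30.0 CPM in astrocyte EVs and 21.4 to 32.2 CPM in NSC EVs. Sums of the microglia, oligodendrocyte and fibroblast markers also overlapped. Of the fibroblast markers, Col1a2 had 583, 686 and 684 raw counts in astrocyte EVs, against 66, 156 and 81 in NSC EVs. Col3a1 had 124, 137 and 113, against 227, 155 and 225.

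Of the 7 members, 0 were called higher and 1, miR-26b-5p, was called lower when astrocyte EVs were set against NSC EVs (edgeR quasi-likelihood test, Benjamini-Hochberg adjusted p under 0.05 over 256 mature miRNAs). Among all tested mature miRNAs 22.3% were called higher and 25.8% lower. The members had a median log2 fold change (astrocyte EVs over NSC EVs) of -0.14 and a median absolute log2 fold change of 0.37, beside -0.06 and 1.66 over all tested. At an unadjusted p under 0.05, 1 member was past the threshold as well, and DESeq2 called 0 of the 7 higher and 0 lower. Within a library the members spanned more than 2 orders of magnitude, and their order was nearly the same in both EV types. In astrocyte EVs it ran miR-26a-5p, miR-30a-5p, miR-30d-5p, miR-26b-5p, miR-30e-5p, miR-30c-5p and miR-30b-5p. In NSC EVs miR-26b-5p stood directly after miR-26a-5p, ahead of miR-30d-5p and miR-30a-5p, and the order of the last 3 was the same. The neighbours miR-30d-5p and miR-26b-5p overlapped in astrocyte EVs, as did miR-30e-5p and miR-30c-5p there and miR-30d-5p and miR-30a-5p in NSC EVs.

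**Figure D1:**
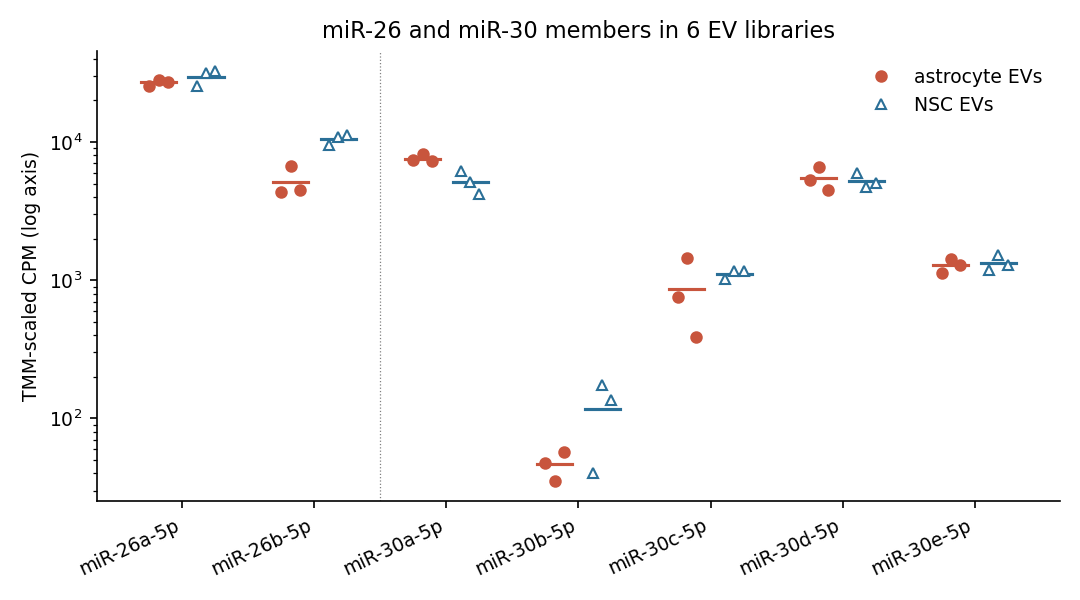
TMM-scaled CPM (log axis) of the 7 members in each library, with astrocyte EVs as filled circles and NSC EVs as open triangles and the mean of 3 libraries as a bar. The groups are apart for miR-26b-5p (all astrocyte EV libraries at or under 6676 CPM, all NSC EV libraries at or over 9520 CPM) and for miR-30a-5p, and overlap for the other 5.

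MiR-26a-5p was the most abundant member in both EV types. It measured 25302, 28325 and 27346 CPM (scaled by TMM, the trimmed mean of M-values) in astrocyte EV replicates 1 to 3 and 25243, 31643 and 32557 CPM in NSC EVs. The groups overlapped, and NSC EV replicate 1 was the lowest of the 6 libraries. The means were 26991 ± 1542 CPM in astrocyte EVs and 29815 ± 3985 CPM in NSC EVs (SD, n = 3 each), which placed it 10th in astrocyte EVs and 6th in NSC EVs among 902 mature miRNAs. Its log2 fold change was -0.14 (SE 0.30, edgeR adjusted p = 0.709), smaller in size than in all but 5.08% of the tested miRNAs.

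MiR-26b-5p, which has the same seed, was the 1 member called lower in astrocyte EVs. It measured 4347, 6676 and 4479 CPM in astrocyte EVs and 9520, 10904 and 11168 CPM in NSC EVs. Every astrocyte EV library was below every NSC EV library, with replicate 2 the highest of the astrocyte EVs. Such a separation downwards was seen in 36.3% of all tested miRNAs. The means were 5167 ± 1308 CPM in astrocyte EVs and 10531 ± 885 CPM in NSC EVs (SD, n = 3 each), and it ranked 35th in astrocyte EVs, against 14th in NSC EVs. Its log2 fold change was -1.03 (SE 0.31, edgeR adjusted p = 0.0296). The direction was kept under each of the 17 alternatives, but the call was lost under 8 of them. Among these were DESeq2 (-1.09, adjusted p = 0.0684), no low-count filter (-0.91, edgeR adjusted p = 0.300) and the fits without astrocyte EV replicate 1 (-0.82, edgeR adjusted p = 0.135), without astrocyte EV replicate 2 (-1.20, edgeR adjusted p = 0.0582), without NSC EV replicate 1 (-0.88, edgeR adjusted p = 0.0647) and without NSC EV replicate 3 (-1.03, edgeR adjusted p = 0.0687). The call was kept without astrocyte EV replicate 3 (-1.08, edgeR adjusted p = 0.0251) and without NSC EV replicate 2 (-1.17, edgeR adjusted p = 0.0386).

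MiR-30a-5p was the leading miR-30 member in astrocyte EVs, at 7397, 8152 and 7242 CPM, against 6150, 5158 and 4183 CPM in NSC EVs. All astrocyte EV libraries were above all NSC EV libraries, a separation upwards that 28.5% of all tested miRNAs showed. The means were 7597 ± 487 CPM in astrocyte EVs and 5163 ± 984 CPM in NSC EVs (SD, n = 3 each). The log2 fold change of 0.56 (SE 0.29, edgeR adjusted p = 0.154) was not past the threshold, and no alternative brought it past (adjusted p 0.0792 to 0.829).

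MiR-30d-5p was close to miR-30a-5p in level, at 5316, 6635 and 4504 CPM in astrocyte EVs and 5945, 4727 and 5067 CPM in NSC EVs. The groups overlapped, with the highest and the lowest of the 6 values both in astrocyte EVs. Its log2 fold change was 0.06 (SE 0.30, edgeR adjusted p = 0.877). MiR-30e-5p measured 1131, 1416 and 1290 CPM in astrocyte EVs and 1187, 1514 and 1281 CPM in NSC EVs. These ranges nearly coincided, and the log2 fold change was -0.05 (SE 0.31, edgeR adjusted p = 0.889). Only 1.17% of the tested miRNAs had a smaller absolute log2 fold change than miR-30e-5p, and 1.56% a smaller one than miR-30d-5p. For both, the sign changed with the scaling or filter.

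MiR-30c-5p was the most uneven of the well-counted members in astrocyte EVs. It measured 760, 1441 and 387 CPM there and 1019, 1164 and 1169 CPM in NSC EVs. Astrocyte EV replicate 2 was above and replicates 1 and 3 were below all NSC EV libraries, and the log2 fold change of -0.37 (SE 0.50) gave an edgeR adjusted p of 0.561. MiR-30b-5p was the scarcest, with 10, 7 and 18 raw counts in astrocyte EVs and 12, 39 and 22 in NSC EVs. These equal 47.5, 35.3 and 56.7 CPM in astrocyte EVs and 40.2, 175 and 136 CPM in NSC EVs. NSC EV replicate 1 lay within the astrocyte EV range. The log2 fold change of -1.31 had an SE of 0.69 and was not past the threshold (edgeR adjusted p = 0.155).

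**Figure D2:**
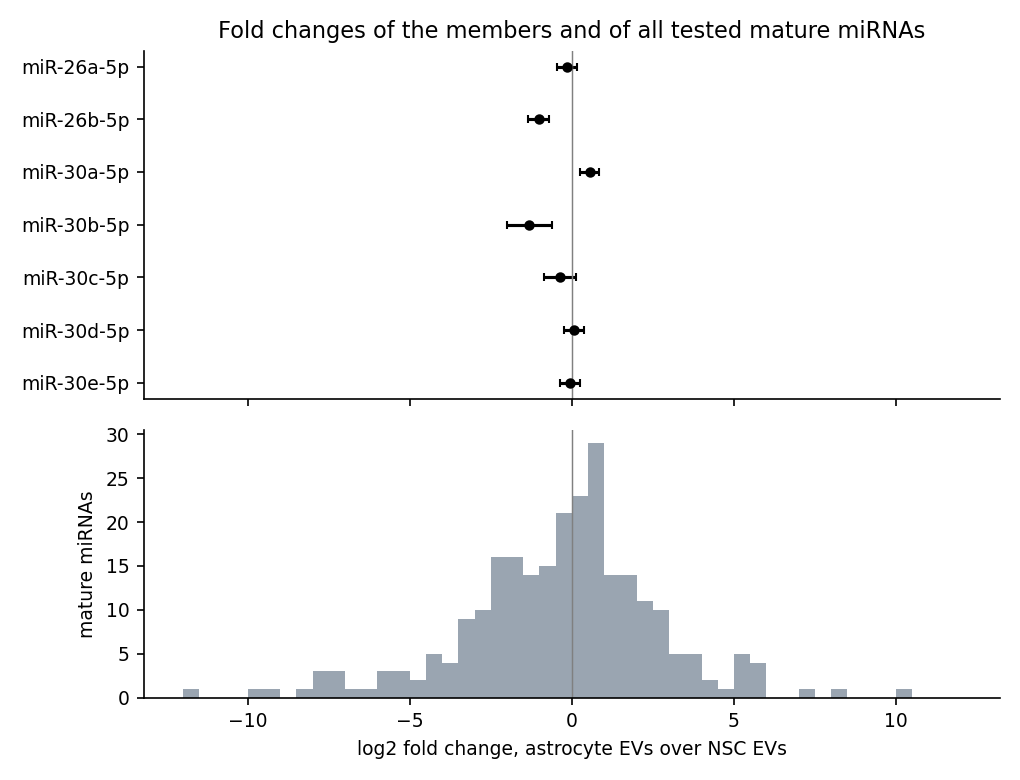
Log2 fold changes of astrocyte EVs over NSC EVs: the 7 members above (points, with bars of 1 standard error) and a histogram of all 256 tested mature miRNAs below, on the same axis. The members lie between -1.31 and 0.56, near the middle of a distribution with a median absolute value of 1.66.

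The 16 other broadly expressed miRNAs that were listed gave a measure of how such miRNAs differed in these libraries. Of these, 4 were called higher and 3 lower, beside 22.3% called higher and 25.8% lower among all tested mature miRNAs. The median log2 fold change of the list was 0.56. The 4 most abundant by the mean over all 6 libraries were let-7a-5p (0.56, edgeR adjusted p = 0.183), miR-21a-5p (2.91, edgeR adjusted p = 0.00271), miR-320-3p (1.49, edgeR adjusted p = 0.0126) and miR-103-3p (-0.97, edgeR adjusted p = 0.0586). Over the whole list the values ran from -2.20 (miR-93-5p) to 3.97 (miR-423-5p), with miR-101a-3p (0.01) closest to 0. Whether the members as a set differ from this list was not tested.

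Summed over both members, miR-26 took 3.43, 3.32 and 2.53% of the mature miRNA counts of astrocyte EVs, against 3.99, 4.65 and 3.99% in NSC EVs. The groups did not overlap, and the 95% Wilson intervals, which cover counting error only, were no wider than from 4.56 to 4.75% (NSC EV replicate 2). The lowest astrocyte EV share was that of replicate 3, where the sum of the red blood cell miRNAs, mostly miR-486a-5p and miR-486b-5p, was highest. With those miRNAs left out of the denominator the miR-26 share averaged 3.40 ± 0.328% in astrocyte EVs, against 4.22 ± 0.380% in NSC EVs (SD, n = 3 each), still without overlap. These shares are not scaled by TMM, and on the TMM scale the summed miR-26 groups overlapped. There astrocyte EV replicate 2 (28325 and 6676 CPM for miR-26a-5p and miR-26b-5p) lay just above NSC EV replicate 1 (25243 and 9520 CPM). MiR-30 took 1.69, 1.68 and 1.07% in astrocyte EVs and 1.65, 1.39 and 1.08% in NSC EVs. Here the groups overlapped along almost their whole length. These sums carry no test, since the members were chosen with results known.

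**Figure D3:**
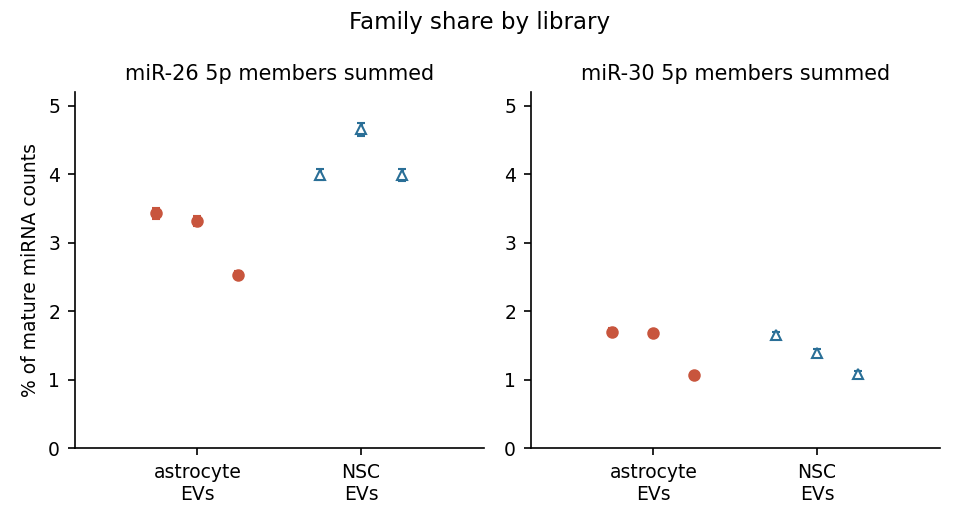
Share of mature miRNA counts (%) held by the summed miR-26 members (left panel) and miR-30 members (right panel) in each library, with astrocyte EVs as filled circles, NSC EVs as open triangles and 95% Wilson intervals as bars. MiR-26 lies at 2.53 to 3.43% in astrocyte EVs, against 3.99 to 4.65% in NSC EVs, while the miR-30 ranges overlap. Shares are not scaled by TMM, and on the TMM scale the summed miR-26 groups overlap.

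A ratio of 2 members within a library does not depend on depth or scaling, and it was taken for the 1 pair of miR-26 and the 10 pairs of miR-30. The ratio of miR-26b-5p to miR-26a-5p was 0.172, 0.236 and 0.164 in astrocyte EVs, against 0.377, 0.345 and 0.343 in NSC EVs. The NSC EV libraries lay close together and above all astrocyte EV libraries, so that miR-26b-5p made up 15.9 ± 2.73% of miR-26 counts in astrocyte EVs and 26.2 ± 1.04% in NSC EVs (SD, n = 3 each). The difference of mean log2 ratios was -0.92, and it stayed between -1.08 and -0.82 with each library left out in turn. Its exact two-sided permutation p of 0.1 is the smallest that 3 against 3 allows, and was 0.367 after Benjamini-Hochberg adjustment over the 11 pairs.

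Of the 11 pairs, 3 did not overlap between the groups, beside 57.6% of all 20100 pairs among the 201 tested miRNAs with counts in every library, so separated ratios were no more frequent in the families than elsewhere. Within miR-30, only the ratios of miR-30a-5p to miR-30d-5p and to miR-30e-5p were among them. MiR-30a-5p to miR-30d-5p was 1.39, 1.23 and 1.61 in astrocyte EVs, against 1.03, 1.09 and 0.825 in NSC EVs (difference of mean log2 ratios 0.52, exact permutation p = 0.1, adjusted 0.367). MiR-30a-5p to miR-30e-5p was 6.54, 5.76 and 5.61 in astrocyte EVs, against 5.18, 3.41 and 3.27 in NSC EVs (difference 0.63, exact permutation p = 0.1, adjusted 0.367). In both, astrocyte EVs were higher, and NSC EV replicates 2 and 3 lay near each other in the second. MiR-30a-5p thus made up 50.1 ± 3.82% of miR-30 counts in astrocyte EVs and 39.6 ± 3.86% in NSC EVs (SD, n = 3 each), the only miR-30 member whose share did not overlap. MiR-30d-5p made up 35.7 ± 2.11% in astrocyte EVs and 40.5 ± 2.98% in NSC EVs (SD, n = 3 each). The other 8 pairs overlapped. The count of 3 separated pairs rose to 6 without astrocyte EV replicate 2 and to 8 without NSC EV replicate 1, with fewer libraries to overlap.

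**Figure D4:**
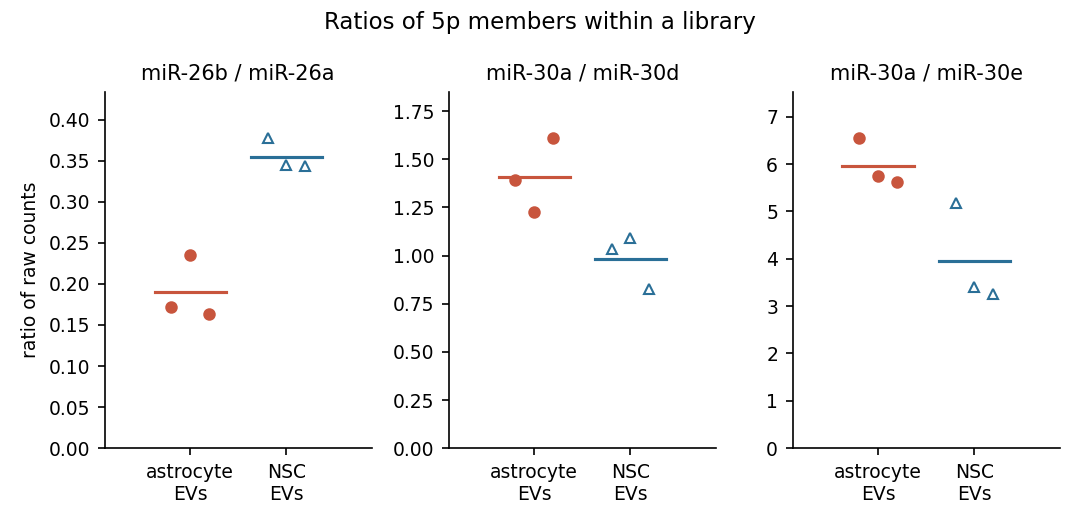
Ratio of raw counts within a library for the 3 pairs of members whose groups did not overlap, with astrocyte EVs as filled circles, NSC EVs as open triangles and the mean as a bar, on axes from 0. MiR-26b to miR-26a is lower in astrocyte EVs (0.164 to 0.236, against 0.343 to 0.377), and both miR-30a ratios are higher.

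The opposite arms of the same hairpins held 1 difference that kept its call under every alternative run. The count table has 9 mature 3p arms of these hairpins, of which 3 passed the filter and were tested and 1 was called, beside the 25.8% called lower among all tested miRNAs. MiR-30e-3p and miR-30a-3p, the only 3p arms with an average above 100 CPM in both EV types, are shown because they share a seed of their own, in capitals, and differ by G18A (miR-30a-3p first).
miR-30a-3p: cUUUCAGUcggauguuugcagc
miR-30e-3p: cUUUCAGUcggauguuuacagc
MiR-30e-3p measured 304, 554 and 482 CPM in astrocyte EVs and 1120, 1869 and 1949 CPM in NSC EVs. All astrocyte EV libraries were below all NSC EV libraries, of which replicate 1 was the lowest. It fell in astrocyte EVs by 1.88 on the log2 scale (SE 0.41, edgeR adjusted p = 0.00802), and the call was kept under all 16 alternatives that gave a value (adjusted p 0.00194 to 0.0361). MiR-30a-3p measured 1116, 1658 and 1592 CPM in astrocyte EVs and 1864, 1883 and 2190 CPM in NSC EVs, a separation downwards that it shared with 36.3% of the tested miRNAs, and its log2 fold change of -0.44 (SE 0.31, edgeR adjusted p = 0.269) was not past the threshold. MiR-30c-2-3p had 15, 26 and 61 counts in astrocyte EVs and 10, 0 and 18 in NSC EVs (log2 fold change 1.49, SE 1.14, edgeR adjusted p = 0.312). The other 6 arms were scarce, with 0 to 7 counts in a library except for miR-30b-3p, which had 6, 6 and 65 counts in astrocyte EVs and 11, 3 and 7 in NSC EVs.

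The share of the 5p arm in the 5p plus 3p counts of a hairpin was compared after these values had been seen. For miR-30e it was 78.8, 71.9 and 72.8% in astrocyte EVs, against 51.5, 44.8 and 39.7% in NSC EVs. The 5p arm thus dominated in astrocyte EVs, while in NSC EV replicates 2 and 3 the 3p arm was the more abundant one. The means were 74.5 ± 3.76% in astrocyte EVs and 45.3 ± 5.92% in NSC EVs (SD, n = 3 each), 29.2 percentage points apart (exact permutation p = 0.1, the smallest possible). For miR-30a the 5p share was 86.9, 83.1 and 82.0% in astrocyte EVs, against 76.7, 73.3 and 65.6% in NSC EVs. The groups again did not overlap, and their means of 84.0 ± 2.57% in astrocyte EVs and 71.9 ± 5.68% in NSC EVs (SD, n = 3 each) lay 12.1 points apart (exact permutation p = 0.1). For miR-30d the 5p arm held at least 99.3% in every library. Among 63 hairpins with at least 20 counts of both arms together in each library and 10 of each arm over all libraries, 20.6% had a 5p share that was higher in astrocyte EVs without overlap, and by absolute difference miR-30e ranked 3 and miR-30a 16, beside a median of 3.25 points. With miR-30a and miR-30e summed arm by arm, which removes any exchange of reads between them, the 5p share averaged 82.5 ± 2.85% in astrocyte EVs and 64.0 ± 7.10% in NSC EVs (SD, n = 3 each), without overlap.

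**Figure D5:**
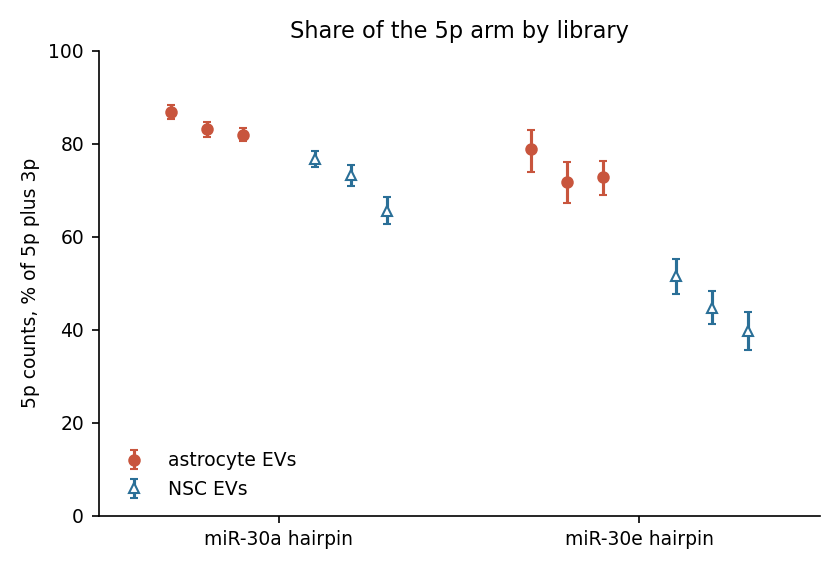
Share of 5p counts in the 5p plus 3p counts (%) of the miR-30a and miR-30e hairpins in each library, with astrocyte EVs as filled circles, NSC EVs as open triangles and 95% Wilson intervals as bars. For miR-30e the astrocyte EV libraries lie at 71.9 to 78.8% and the NSC EV libraries at 39.7 to 51.5%.

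The host genes were read through their RefSeq rows. These rows take in the miRNA reads, which made up 97.9 to 99.6% of the Ctdsp1 counts, 95.7 to 98.2% of the Ctdsp2 counts, 53.8 to 84.7% of the Ctdspl counts and 35.1 to 56.0% of the Nfyc counts. After the hairpin counts were taken away, Nfyc fragments were at 4.79, 8.74 and 11.5 CPM of all non-hairpin counts in astrocyte EVs and 24.0, 18.1 and 22.9 CPM in NSC EVs. The remainder of Nfyc, the host of mir-30e and mir-30c-1, was thus lower in all astrocyte EV libraries, and this comparison was not tested. It rests on 410 to 1277 counts per library. How many of all RefSeq rows separate in this way was not counted, so the separation cannot be read as particular to Nfyc. The remainders of Ctdspl, Ctdsp2 and Ctdsp1 overlapped between the groups.

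The miRNAs with the most similar pattern over the 6 libraries were found from the root mean square difference of centred log2(CPM + 1), a description over libraries that share their depth and scaling. MiR-26a-5p and miR-30e-5p were nearest to each other (0.110, beside a median of 1.08 over the 197 miRNAs set against miR-26a-5p). MiR-26b-5p was nearest to miR-98-5p (0.133), let-7f-5p (0.242) and miR-132-3p (0.248), all closer to it than its family member miR-26a-5p (0.489). MiR-30a-5p was nearest to miR-99a-5p (0.213), miR-30d-5p to miR-130a-3p (0.190) and miR-30c-5p to miR-324-5p (0.230). MiR-30b-5p had no near neighbour, the closest being miR-125b-5p (0.586). With 7 to 39 raw counts per library, counting error adds to its distance from every miRNA, so this does not show a pattern of its own.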

How the data were processed

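EV small RNA was sequenced in 3 astrocyte EV and 3 NSC EV libraries. The authors deposited raw counts per annotated row, and the processing notes list Bowtie, Bowtie2, bedtools, cutadapt, DESeq, FastQC and SAMtools, with mm10. No source used here gives how multiply mapping reads or strand were treated. The study's methods and the series record name different library kits and sequencers. Deposited columns of the authors' own comparison (group means, fold changes, adjusted p-values) were not used.

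Mature rows (902) were fitted without hairpin rows, which repeat the reads, in edgeR 4.0.16 (R 4.3.3) with TMM, the default filter, the quasi-likelihood test and Benjamini-Hochberg adjustment over 256 miRNAs (threshold 0.05). The fit was tested on simulated data. DESeq2 1.42.0 was an alternative, with other scalings, filters, row types and left-out libraries. Replicates differed by more than sampling noise (smallest chi-square per degree of freedom 20.7). Ratios, shares and exact permutation tests used Python 3.11.15, pandas 2.3.3 and scipy 1.17.1, and figures matplotlib 3.10.9. All 7 members, their 3p arms, hairpins and hosts, the 3 nearest miRNAs (at least 100 CPM) of each member, and the 4 most abundant listed broadly expressed miRNAs could be named. Members and lists were chosen with earlier results of these data known. The 5p share and its alternatives were added after the data were seen.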

Additional observations from a re-analysis of the deposited data

How the results depend on the processing

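Of 119 values of the 7 members under 17 alternatives, 97 kept direction and side of the threshold. These values are not independent, since the test against a 2-fold change reuses the main fold changes and summed miR-30 members share a value. MiR-26b-5p also lost its call under a test against a 2-fold change (adjusted p = 0.385). DESeq2, no filter and the 2-fold test left 0 members called lower, and leaving out 1 library left 0 to 1. When every non-hairpin row entered the library size, the median over all tested miRNAs was -0.92 on the log2 scale (main -0.06) and the calls were 32 higher and 96 lower (main 57 and 66), with 2 members lower: miR-26b-5p (-1.84, or -0.92 relative to that median) and miR-30b-5p (-2.04, or -1.11 relative to it, edgeR adjusted p = 0.04996). On that scale miR-30a-5p turned to -0.34 (0.58 relative to the median) and miR-30d-5p to -0.80 (0.12 relative to it). Shares of all non-hairpin counts moved to a log2 ratio of -1.13 for miR-26 (main -0.45) and -0.64 for miR-30 (main 0.11). Without NSC EV replicate 2 the calls were 34 higher and 45 lower.

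Other signs changed too, and the cause was not tested. MiR-30d-5p was at -0.054 without TMM and -0.24 with a minimum of 10 counts, and ranged from -0.20 to 0.39 with 1 library left out. MiR-30e-5p was at 0.0502 without a filter and 0.14 with miR-30a, miR-30d and miR-30e summed, and ranged from -0.21 to 0.13 with 1 library left out. MiR-26a-5p ranged from -0.27 to 0.0052 with 1 library left out, and miR-30b-5p was at 0.0555 in hairpin rows, which add its 3p counts. The 5p share difference of miR-30e was 26.4 to 32.3 points and of miR-30a 8.99 to 14.5 points with 1 library left out, and 18.5 points for both summed. Separated ratio pairs numbered 3 to 8. MiR-30b-5p (7 to 39 counts per library) and 6 untested 3p arms had few counts.

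Same-numbered libraries of the 2 EV types deviated together only weakly (correlations 0.0577, 0.126 and 0.0678), although each correlated best with its own number, so the numbers were not taken to pair them. With the replicate block, calls were 45 higher and 55 lower, 0 members were called, and miR-26b-5p was at -1.05 (edgeR adjusted p = 0.0633).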
